A study of Mus musculus with 3 samples.

Results

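The genes described here were the 7 mouse globin genes Hba-x, Hba-a1, Hba-a2, Hbb-y, Hbb-bh1, Hbb-bt and Hbb-bs, of 18738 genes in the count tables. They were taken as a list, and their unique molecular identifiers (UMIs, which count RNA molecules) were read in every kept barcode. Barcodes were kept if they had 200 to 9000 genes and at most 10% mitochondrial UMIs, which left 28971 of 29103 cells. The mix of globins was described in the 79 kept cells that had at least 5% of their UMIs from Hba-a1, and the level of globins in all other cells. The samples were 3 thawed lots of fetal ovarian somatic cells (FOSCs; lots 26, 29 and 30) profiled by 10X Genomics single-cell RNA sequencing. Each lot pooled E12.5 ovaries, dissected off the mesonephros, from embryos carried by 10 pregnant CD1 females. The suspension was passed over a magnetic column with SSEA1 and CD31 antibodies to deplete germ cells, and then frozen. All lots belonged to 1 untreated condition, so the lots served as replicates (n = 3 lots) and no groups of lots were compared.

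Hemoglobin pairs α-type with β-type globin chains, each holding a heme. In the mouse the α-type cluster carries Hba-x, the embryonic ζ-like gene, ahead of the adult genes Hba-a1 and Hba-a2. The β-type cluster carries Hbb-y and Hbb-bh1, which are embryonic genes, and Hbb-bt and Hbb-bs, which are adult genes. Primitive red cells arise in the yolk sac, circulate with a nucleus and use embryonic together with adult α globin genes. Definitive red cells come from the fetal liver and use the adult genes.

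The α-type genes lay on the plus strand of chromosome 11 (GRCm38), with Hba-x at chr11:32276400-32278116, Hba-a1 at chr11:32283511-32284465 and Hba-a2 at chr11:32296489-32297298. The β-type genes lay on the minus strand of chromosome 7, with Hbb-bt at chr7:103812524-103813996, Hbb-bs at chr7:103826534-103828096, Hbb-bh1 at chr7:103841637-103843164 and Hbb-y at chr7:103851749-103853216. Each was annotated as protein-coding, with 3 exons.

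Hba-a1 chose the red cells described below. Between the kinds of these cells, the shares of Hba-x, Hbb-y, Hbb-bt and Hbb-bs in a lot's globin UMIs differed. The promoters of these 5 genes are printed. Each is the stretch just before the RefSeq transcript start (GRCm38.p6), given 5′ to 3′ on the gene's own strand. The windows were chr11:32276475-32276599 for Hba-x, chr11:32283547-32283671 for Hba-a1, chr7:103853208-103853332 for Hbb-y, chr7:103813924-103814048 for Hbb-bt and chr7:103827929-103828053 for Hbb-bs. The GENCODE models of Hba-x, Hba-a1 and Hbb-bs begin upstream of these windows, and those of Hbb-bt and Hbb-y inside them. Capitals mark CACCC (the box that KLF1 binds), CCAAT, the TATA-box letters ATATAA and ATAAA, and GATAA (the core that GATA factors bind), searched on both strands. CCAAT on the minus strand reads ATTGG, and where ATATAA runs into ATAAA the letters are joined.
Hba-x: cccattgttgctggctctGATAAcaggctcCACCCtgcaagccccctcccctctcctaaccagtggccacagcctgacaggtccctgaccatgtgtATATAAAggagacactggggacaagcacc
Hba-a1: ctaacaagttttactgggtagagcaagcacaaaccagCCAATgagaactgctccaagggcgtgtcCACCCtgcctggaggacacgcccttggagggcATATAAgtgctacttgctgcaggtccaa
Hbb-y: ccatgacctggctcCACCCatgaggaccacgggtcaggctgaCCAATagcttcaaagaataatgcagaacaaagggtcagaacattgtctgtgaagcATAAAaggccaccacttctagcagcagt
Hbb-bt: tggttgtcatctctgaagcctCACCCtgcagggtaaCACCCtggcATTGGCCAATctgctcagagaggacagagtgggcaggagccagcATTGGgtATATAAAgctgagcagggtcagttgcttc
Hbb-bs: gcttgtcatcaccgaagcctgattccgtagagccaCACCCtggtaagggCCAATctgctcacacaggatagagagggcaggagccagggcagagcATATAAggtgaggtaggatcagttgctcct

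All 5 windows held CACCC and a TATA-box run, and CACCC lay between 60 bases (Hba-a1) and 111 bases (Hbb-y) before the start. On the gene's own strand CCAAT lay 75 to 88 bases before the start of the 4 genes other than Hba-x, whose window had none, and Hbb-bt also had it on the opposite strand, 80 and 36 bases before. The GATAA of Hba-x, 107 bases before its start, was the only one in the 5 windows. Among 32851 RefSeq promoter windows of this length, 32.7% held CACCC, 21.9% CCAAT, 4.6% ATATAA, 20.9% ATAAA and 11% GATAA, and 1.21% held CACCC with CCAAT and one of the TATA-box runs. These matches describe letters and no binding was measured. By symbol, 6 of the 7 genes matched the RefSeq promoter table, and Hba-a2 is not printed beside its near-identical copy Hba-a1.

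The tables held 126680758 UMIs in lot 26, 87494974 in lot 29 and 141920060 in lot 30, and the median kept cell had 8949 (lot 29) to 11595 (lot 30) UMIs. Pairs of lots shared 19 to 30 barcodes, none of them in the 79 Hba-a1 cells. Scrublet called 4.06% to 5.93% of the kept cells of a lot doublets, and 0 of the 79. The cells with Hba-a1 of at least 5% numbered 20 of 9711 in lot 26, 37 of 8553 in lot 29 and 22 of 10707 in lot 30. These were 0.206% (exact 95% interval 0.126% to 0.318%), 0.433% (0.305% to 0.596%) and 0.206% (0.129% to 0.311%) of the kept cells, or 0.281% ± 0.131 (SD, n = 3 lots). Here and below, intervals cover counting error only. The share was highest in lot 29, which was also the shallowest lot.

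The cut at 5% fell in a gap. The highest Hba-a1 share below it was 3.01% in lot 26, 1.23% in lot 29 and 4.24% in lot 30, and the lowest above it was 8.61%, 6.49% and 5.82%. The 79 cells held 92.0% of the 690373 globin UMIs of all kept cells. When cells were clustered without globin genes, 68 of the 79 formed a cluster of their own with no other cell (19, 35 and 14 cells in lots 26, 29 and 30). This cluster was named red-blood-cell-like from markers that hold no globin. Of its 10 markers 9 were in the tables and all 9 had UMIs in the cluster, with a summed level of 7865 UMIs for every 1000000 UMIs that are not globin (non-globin CPM) against 1.65 in all other kept cells. Of other marker lists, 8 of 8 neural crest, 9 of 11 macrophage and 6 of 10 endothelial genes had no UMI in it. Steroidogenic markers summed to more in the cluster than in other kept cells (121 against 38.2 non-globin CPM, with 5 of 6 at 0), and Sertoli markers to 166 against 188. Pre-granulosa markers summed to 1789 non-globin CPM there and to 2617 in other kept cells, with 2 of 12 at 0. Stromal markers summed to 393 against 1078, with 1 of 11 at 0, and germ markers to 143 against 429, with 1 of 9 at 0. The part of RNA from neighbouring cells in these values was not tested.

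The 79 cells fell into 2 kinds by their β-type globins. Hbb-y and Hbb-bh1 together made up at most 2.33% of the β-type UMIs in 43 cells and at least 85.6% in the other 36, with 0 cells between 20% and 80%. The first kind is called adult-type and the second embryonic here. The embryonic kind was 6 of 20 cells in lot 26 (30.0%, interval 11.9% to 54.3%), 26 of 37 in lot 29 (70.3%, 53.0% to 84.1%) and 4 of 22 in lot 30 (18.2%, 5.19% to 40.3%). Summed over all Hba-a1 cells of a lot, the embryonic share of β-type UMIs was therefore 43.9%, 79.5% and 28.2%, or 50.5% ± 26.3 (SD, n = 3 lots). By kind, the share was 90.4%, 91.9% and 89.2% in the embryonic cells and 0.0776%, 0.0366% and 0.0139% in the adult-type cells. The kinds were split by this share, so these values are a description. Hba-a1, which set the cut, was 17.4% of the globin UMIs of embryonic and 34% of those of adult-type cells. The cut thus asked for more globin of embryonic cells, which bears on the numbers of each kind. In lot 30 a cell of the embryonic kind with 19.7% globin lay below it and an adult-type cell with 13.5% above it.

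Hba-x, which took no part in this split, separated the same cells. In adult-type cells it had 0, 1 and 0 UMIs in lots 26, 29 and 30. In embryonic cells it had 5898, 34257 and 6689 UMIs, which were 35.7%, 42.0% and 40.3% of the α-type UMIs (39.3% ± 3.29, SD, n = 3 lots). Every embryonic cell had at least 26 Hba-x UMIs and the 43 adult-type cells had at most 1, so the cells did not overlap. The share varied from cell to cell, from 7.07% to 57.9% with a median of 38.9%. Hba-a1 remained the larger α-type component in the sums of every lot. The lowest share came from a cell of lot 29 with 26 Hba-x UMIs, in which globins were only 25.9% of the UMIs.

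**Figure D1:**
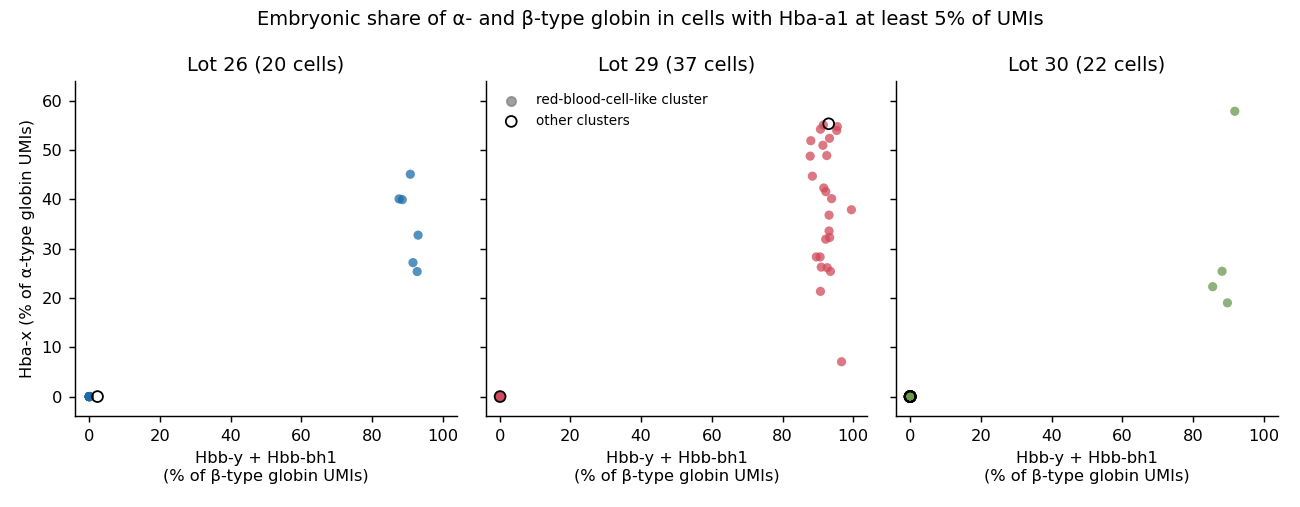
Each point is a cell with Hba-a1 at least 5% of its UMIs, by lot, with the embryonic share of β-type UMIs (Hbb-y and Hbb-bh1, %) on the x axis and the share of Hba-x in the α-type UMIs (%) on the y axis. Filled points lie in the red-blood-cell-like cluster and open circles in other clusters, and the cells sit either at most at 2.33% on x and 0.0581% on y or at least at 85.6% on x and 7.07% on y.

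Hbb-bh1, the other embryonic β-type gene, was a minor and uneven component. It had 228, 1048 and 665 UMIs in the embryonic cells of lots 26, 29 and 30, against 43694, 176127 and 31963 of Hbb-y. Every embryonic cell had it, from 1 to 617 UMIs, which were 0.0097% to 4.08% of the β-type UMIs with a median of 0.246%. The cell with 617 UMIs supplied most of the lot 30 count, and it also had the highest Hba-x share (57.9%). In the 26 embryonic cells of lot 29 the shares of Hbb-bh1 and Hba-x had a Pearson's r of 0.415 and a Spearman's rho of 0.404, given as a description of cells that share a library. In adult-type cells Hbb-bh1 had 37, 0 and 1 UMIs. All 37 came from 1 cell of lot 26 with 0 UMIs of Hbb-y and of Hba-x, which lay in an endothelial-like cluster.

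Adult β-type genes were present in the embryonic cells too. Hbb-bs was 5.66%, 4.82% and 6.29% of their globin UMIs in lots 26, 29 and 30, and Hbb-bt 1.48%, 0.883% and 1.17%. All 36 embryonic cells had Hbb-bs (11 to 1162 UMIs) and 33 had Hbb-bt. Embryonic cells therefore held RNA of embryonic and adult genes, while adult-type cells held almost none of the embryonic genes. The globin UMIs of adult-type cells were 54.4% ± 4.11 Hbb-bs, 34% ± 3.45 Hba-a1 and 11.6% ± 0.701 Hbb-bt (SD, n = 3 lots). Those of embryonic cells were 63.8% ± 3.54 Hbb-y, 17.4% ± 1.16 Hba-a1, 11.4% ± 2.00 Hba-x, 5.59% ± 0.735 Hbb-bs, 1.18% ± 0.297 Hbb-bt and 0.661% ± 0.511 Hbb-bh1. Hbb-y was the leading globin of embryonic cells and Hbb-bs that of adult-type cells in every lot.

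**Figure D2:**
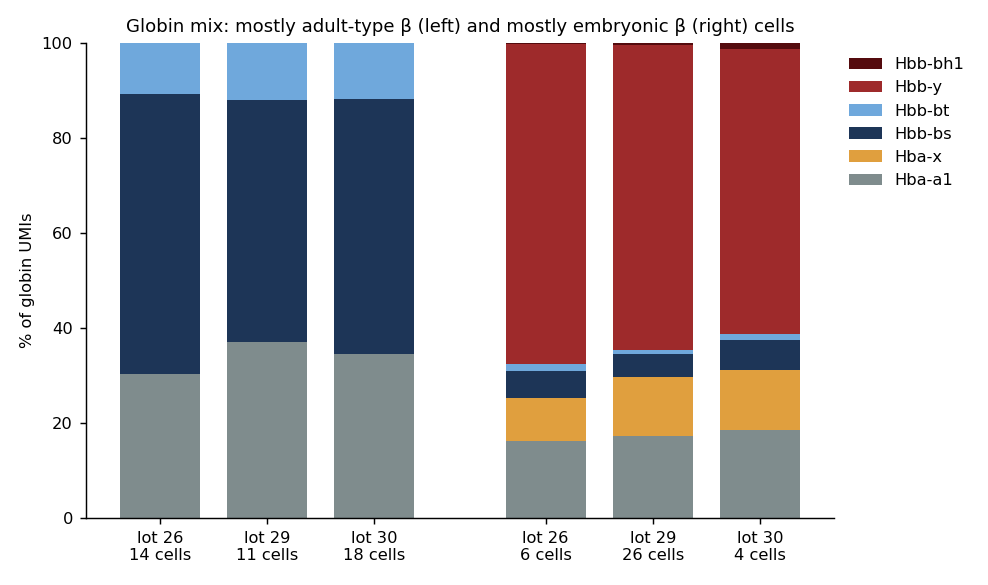
Stacked bars give each globin as a percent of globin UMIs, summed over the adult-type (left) and embryonic (right) cells of each lot, with the number of cells under each bar. The bars of 1 kind resemble each other across lots, with Hbb-y at 60.1% to 67.1% in embryonic cells and Hbb-bs at 50.8% to 58.9% in adult-type cells, and Hba-a2 is too low to be seen.

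Hba-a2, the second adult α globin gene, was nearly empty, with 12, 13 and 9 UMIs over all Hba-a1 cells of lots 26, 29 and 30, where Hba-a1 had 33036, 64982 and 51663. Only uniquely mapped reads were counted. Of the 50-base windows in the last 400 bases of the Hba-a1 transcript, 85.8% also occur in that of Hba-a2. The same holds for 54.4% of the windows of Hbb-bt and 54.7% of those of Hbb-bs, each in the other gene, and for none between other pairs of the 7 genes. Reads that map to both genes of such a pair are not counted, so the split within a pair is uncertain. The embryonic genes Hba-x, Hbb-y and Hbb-bh1 shared no such windows. Adult globins can therefore be undercounted against them, which would raise the embryonic shares given here, by an amount that was not tested. UMIs were read at the 3′ end of polyadenylated RNA, so they do not scale with transcript length (554 to 801 bases for the 7 genes).

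Hbb-bt as a share of Hbb-bt and Hbb-bs differed between kinds of cell by less than the spread of the lots. It was 15.5%, 19.2% and 18.2% in adult-type cells of lots 26, 29 and 30 (17.6% ± 1.93, SD, n = 3 lots) and 20.7%, 15.5% and 15.7% in embryonic cells (17.3% ± 2.97). Single embryonic cells ranged from 0% to 62.8%, on smaller counts. The ratio of β-type to α-type UMIs was 2.30, 1.69 and 1.89 in adult-type cells and 2.94, 2.37 and 2.20 in embryonic cells. It was higher in the embryonic cells of every lot, although the ranges of the lots overlapped (1.69 to 2.30 and 2.20 to 2.94). Reads not counted within the gene pairs bear on this ratio, since Hbb-y has no such pair, and their part was not tested. With 3 lots on each side a two-sided exact permutation test cannot reach a p below 0.1, and none was run.

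Of the other globin genes in the tables, the θ-like genes Hbq1b and Hbq1a had 18, 44 and 6 and 1, 6 and 2 UMIs in the Hba-a1 cells of lots 26, 29 and 30. Hbb-bh2 had 0, 3 and 0, all in embryonic cells. Hbq1b was at most 0.0137% of a lot's globin UMIs.

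Globins were 76.6%, 80.4% and 57.0% of all UMIs of the Hba-a1 cells in lots 26, 29 and 30. The adult-type cells of lot 30 were lowest, at 50.04% against 75.9% in lot 26 and 79.3% in lot 29, while embryonic cells had 77.3%, 80.6% and 83.4%. Lot 30 also had 8 of the 11 Hba-a1 cells that clustered outside the red-blood-cell-like cluster, all adult-type. With globins left in the clustering, 75 of the 79 lay in the red cell cluster, 20 of them from lot 30, so 4 lay outside it. The 11 cells had 13.5% to 69.2% globin (median 31.2%) and 894 to 4945 genes (median 3500), against 25.9% to 91.6% (median 84.1%) and 307 to 3317 genes (median 650.5) in the cluster. They lay in pre-granulosa-like (4 cells), epithelial-like (2), stromal-like (1), germ-like (1), endothelial-like (1) and unnamed (2) clusters. Pre-granulosa markers in adult-type cells summed to 1319, 642 and 3225 non-globin CPM in lots 26, 29 and 30. In embryonic cells they summed to 3462, 895 and 946, and the 6 embryonic cells of lot 26 all lay in the red-blood-cell-like cluster. Whether such barcodes held more than 1 cell was not tested beyond the doublet calls.

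In the red-blood-cell-like cluster Hba-a1 was at 186209, 167133 and 226989 UMIs for every 1000000 UMIs (CPM) in lots 26, 29 and 30. In the other 7 classes it lay between 22.2 and 278 CPM, so the cluster and the rest did not overlap in any lot. Hba-x was at 33947, 86967 and 42516 CPM in the cluster and 0 to 298 elsewhere. Hbb-y was at 251508, 453885 and 203205 CPM and 11.1 to 1183 elsewhere, with the highest outside value in the germ-like cells of lot 29. The fitted log2 fold changes of the cluster against the mean of the other classes were 13.72 ± 0.51 (SE) for Hba-a1, 14.86 ± 0.58 for Hba-x, 14.57 ± 0.55 for Hbb-y, 15.13 ± 0.39 for Hbb-bh1, 13.86 ± 0.59 for Hbb-bs and 13.52 ± 0.58 for Hbb-bt. These were fitted after edgeR's TMM scaling of the sums, so they are not ratios of the CPM given above. Hba-a2 was at 35.0 to 69.1 CPM in the cluster and had 0 UMIs in most other sums, so its fitted value depends on the prior count. The value of Hbb-bh1 does so too, as it had 0 UMIs in the macrophage-like cells of every lot. All 7 passed edgeR's quasi-likelihood test as higher, where 3.29% of 13804 genes did. The cells were grouped by their other genes, so these values describe the cluster and nothing is read from the count.

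Genes that red cells use alongside globin were then tested in the 79 Hba-a1 cells against all other kept cells, since only Hba-a1 had chosen them. Of 52 genes in 5 lists, 50 were tested with edgeR's quasi-likelihood test, and 35 were higher, 0 lower and 15 did not pass at an adjusted p of 0.05. Over all 14547 genes tested, 1.8% were higher and 0.11% lower. The median log2 fold change was 3.68 over the lists and -0.56 over all genes. Levels of these genes are in non-globin CPM, since globins take up most of these libraries. The lists were chosen with earlier results known, and the red cell genes among them also mark the cluster that holds 68 of the 79 cells.

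Of the heme synthesis genes 6 of 8 were higher. Alas2, the first and rate-limiting enzyme of heme synthesis in red cells, had 156, 250 and 220 UMIs in the Hba-a1 cells of lots 26, 29 and 30 and 68, 49 and 55 in all other cells together. It was detected in 79 of 79 cells, at 3664, 3190 and 1677 non-globin CPM against 0.541, 0.563 and 0.390, a log2 fold change of 12.497 ± 0.48 (adjusted p = 7.45e-09). Fech, which inserts iron into the ring, was higher by 5.98 ± 0.37, and Urod, which acts in between, by 3.07 ± 0.34. Uros (1.84 ± 0.74) and Ppox (0.21 ± 0.75) did not pass.

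Of the iron and heme handling genes 5 of 9 were higher. Slc25a37, the mitochondrial iron importer mitoferrin, was at 2020, 1391 and 854 non-globin CPM in lots 26, 29 and 30 and 9.25 to 11.8 in other cells (log2 fold change 7.06 ± 0.33). Blvrb, a biliverdin reductase, was higher by 5.49 ± 0.45. The ferritin chains Fth1 and Ftl1 were higher by 4.21 ± 0.57 and 3.48 ± 0.45. Fth1 alone was at 40143, 76969 and 15251 non-globin CPM in Hba-a1 cells. The transferrin receptor Tfrc had 8, 14 and 4 UMIs and did not pass (1.55 ± 0.49, adjusted p = 0.189), although it did with the lot as a block (1.62, adjusted p = 0.0337), as did Hmox1, which breaks down heme (1.79, adjusted p = 0.0141).

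Of the enzymes and maturation genes 8 of 9 were higher. Car2, a carbonic anhydrase, was at 5919, 4543 and 1585 non-globin CPM in lots 26, 29 and 30 and 6.66 to 8.08 in other cells (9.06 ± 0.53). Bpgm, which makes the effector that lowers hemoglobin's affinity for oxygen, was higher by 7.38 ± 0.40. Xpo7, a nuclear exporter used in red cell maturation, was higher by 3.86 ± 0.31. Trim58, a ubiquitin ligase of late erythroblasts, passed at 8.33 ± 1.004 on 1, 3 and 1 UMIs, all in embryonic cells. Car1 had 0 UMIs in the 79 cells.

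Of the membrane and skeleton genes 11 of 12 were higher, and they had the largest changes. Kel, the Kell blood group protein, was higher by 13.22 ± 0.84, and Slc4a1, the anion exchanger of the membrane, by 13.07 ± 0.68. Kel was found in 3 of 43 adult-type and 22 of 36 embryonic cells. These counts are given without a test, since cells are not replicates and embryonic cells had more UMIs, globins included (median 12798.5 against 7493.0). Scaled to non-globin UMIs, Kel was at 629, 501 and 473 CPM in embryonic cells of lots 26, 29 and 30 (12, 33 and 5 UMIs). In adult-type cells it was at 85.1, 80.3 and 16.6 (2, 1 and 2 UMIs). Aqp1, a water channel, had 0 UMIs in the 79 cells.

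Of the transcription factors and receptor genes 5 of 12 were higher. Tal1, an early blood regulator, had 6, 32 and 8 UMIs in Hba-a1 cells of lots 26, 29 and 30 (8.19 ± 0.67). Klf1, which activates adult β globin through its CACCC box, had 9, 6 and 2 (7.37 ± 0.78, adjusted p = 7.73e-05), in 8 adult-type and 3 embryonic cells. Nfe2 (6.33 ± 0.65), the erythropoietin receptor Epor (5.49 ± 0.86) and Lmo2 (3.69 ± 0.84, adjusted p = 0.0396) also passed. Gata1, a master regulator of red cell genes, had 0, 2 and 1 UMIs and did not pass (3.34 ± 1.02, adjusted p = 0.174). Of the factors that act in the switch from embryonic to adult globin, Bcl11a and Myb had 0 UMIs and Sox6 had 0, 2 and 1. With 42573, 78369 and 131202 non-globin UMIs behind these cells, 0 UMIs allows up to 70.5, 38.3 and 22.9 non-globin CPM in lots 26, 29 and 30. Other cells had 8.76 to 9.66 non-globin CPM of Bcl11a and 1.55 to 1.81 of Myb, so lower levels were not detectable at this depth.

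**Figure D3:**
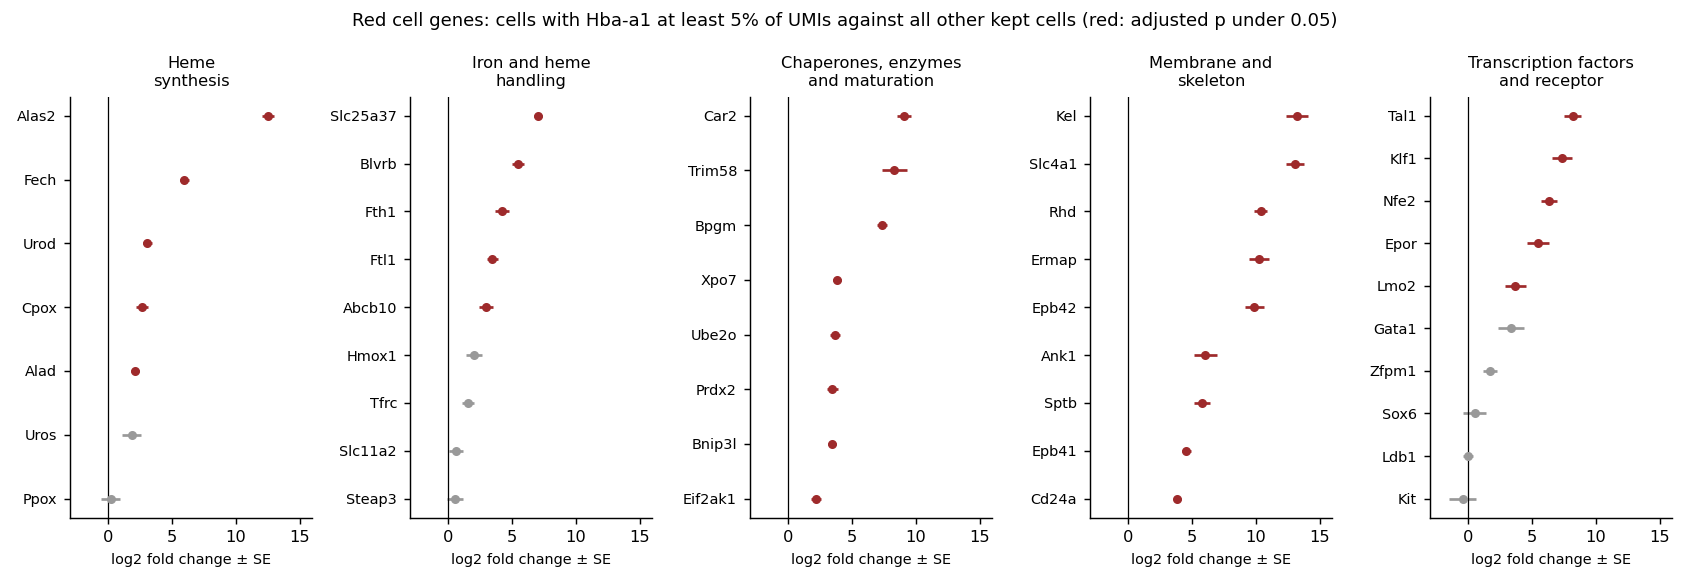
Points give the log2 fold change of Hba-a1 cells against all other kept cells and bars its standard error, with 1 panel for each list. Red points passed edgeR's quasi-likelihood test and grey points did not. The genes not drawn include Car1, Aqp1, Bcl11a and Myb, with 0 UMIs in these cells, Ahsp, which was not analysed here, and Rhag, which was not tested.

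The genes whose level was most like that of Hba-a1 over the 24 sums of 8 classes in 3 lots, among 8698 genes and without other globins, included red cell genes. Among the 10 highest, the Pearson's r of log levels was 0.981 for Slc4a1, 0.976 for the Rh blood group gene Rhd, 0.969 for Bpgm and Kel, 0.968 for Hsd3b6, 0.962 for Grap2 and 0.961 for Trim10. The sums of 1 class share their cell type, and 3 of the 24 are the red-blood-cell-like ones. The values are a description.

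Genes other than β-type globins were compared between adult-type and embryonic cells as values only, because lot 30 had 4 embryonic cells. A gene was named if every lot on its higher side had at least 500 non-globin CPM and its lowest lot there was at least 2 times the highest lot of the other side. Of 218 genes at that level, 7 (3.21%) met the rule, 6 (2.75%) higher in embryonic and 1 (0.459%) in adult-type cells. Of the 18 adult-type cells of lot 30, 8 lay outside the red-blood-cell-like cluster, and they bear on that lot's values. Nudt4, a phosphohydrolase of diphosphoinositol phosphates, had the widest gap, at 9495, 20103 and 20159 non-globin CPM in embryonic cells of lots 26, 29 and 30 and 553, 1044 and 199 in adult-type cells. It was found in 36 of 36 embryonic and 27 of 43 adult-type cells. Esd, esterase D, was at 1836, 1912 and 1893 against 468, 722 and 224 non-globin CPM. Cd59a, an inhibitor of complement, was at 1259, 1290 and 1514 against 170, 401 and 24.9, and Pdzk1ip1, a small membrane protein, at 1154, 1244 and 1420 against 42.5, 241 and 0.

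Hsd3b6, a hydroxysteroid dehydrogenase, was at 1207, 759 and 4543 non-globin CPM in embryonic cells and 170, 321 and 58.0 in adult-type cells of lots 26, 29 and 30. Prdx6, a peroxiredoxin, was at 629, 925 and 1609 against 42.5, 161 and 307. In none of the 7 genes did the lots of the kinds overlap, which is what the rule asks. The number of genes depended on the cells and on how many lots were used. Without lots 26, 29 and 30 it was 17, 20 and 54, but it could not fall there, since fewer lots make the rule easier to meet. It was 20 (5 embryonic and 15 adult-type, with 6 of the 7 among them) when the 11 cells outside the red-blood-cell-like cluster were left out. Prdx6 was the gene of the 7 that then no longer met the rule. Which kind had more genes past the rule thus depended on these 11 cells. With globins kept in the totals, the scale first planned, the number of genes was 3.

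**Figure D4:**
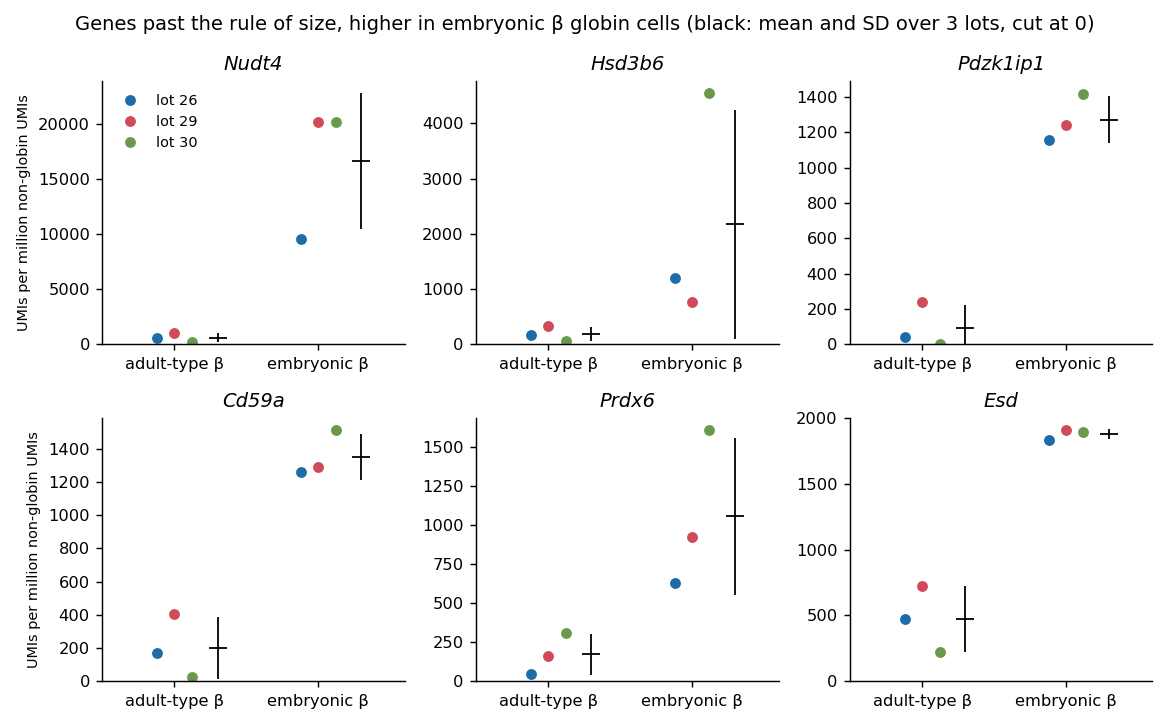
Points give non-globin CPM in the adult-type and embryonic β globin cells of each lot, for the 6 genes that met the rule on the embryonic side, on a linear axis from 0 for each gene. Black marks give the mean and SD over 3 lots, and each of the 6 genes is higher in the embryonic cells of every lot.

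Cells that should not make globin held a low level of it. In the 28882 cells with at most 1% globin, the 7 genes summed to 87.8 CPM in lot 26, 153 in lot 29 and 88.8 in lot 30 (109.7 ± 37.2, SD, n = 3 lots). By class the sum was 75.6 to 100.2 CPM in lot 26, apart from macrophage-like cells at 238, and it was 149.6 to 169 in lot 29 and 70.2 to 110.0 in lot 30. Every class of lot 29 was above every class of both other lots, with the exception of the macrophage-like cells of lot 26. Lot 29 also had the largest share of Hba-a1 cells (0.433%). The limit of 1% bears on these values. With the 10 further cells under 5% Hba-a1 included, the sums were 198, 164 and 113 CPM in lots 26, 29 and 30 and the embryonic share of their β-type UMIs 70.2%, 76.1% and 55.1%, so in lot 26 those 6 cells held more globin UMIs than the other 9685.

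The mix of globins in these cells followed the lot. Every class of lot 29 had an embryonic share of β-type UMIs of 73.5% to 80%, above every class of the other lots (26.9% to 52.2%). Over all classes it was 45.1% (interval 44.0% to 46.2%) in lot 26, 74.9% (74.0% to 75.8%) in lot 29 and 45.7% (44.6% to 46.8%) in lot 30. The Hba-a1 cells of the same lots had 43.9%, 79.5% and 28.2%. The highest value of both was in lot 29. The values of the Hba-a1 cells were set by how many of them were embryonic (4 of 22 in lot 30, interval 5.19% to 40.3%), so no difference between them and the other cells is read from the UMIs. Hba-x was 11.7%, 21.8% and 10.8% of the α-type UMIs, against 15.1%, 34.5% and 11.5% in Hba-a1 cells. In pre-granulosa-like cells, the largest class, the embryonic share was 47.7%, 73.6% and 46.8%, and in germ-like cells 46.6%, 73.5% and 42.8%. With 3 lots no correlation between Hba-a1 cells and the rest was computed.

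**Figure D5:**
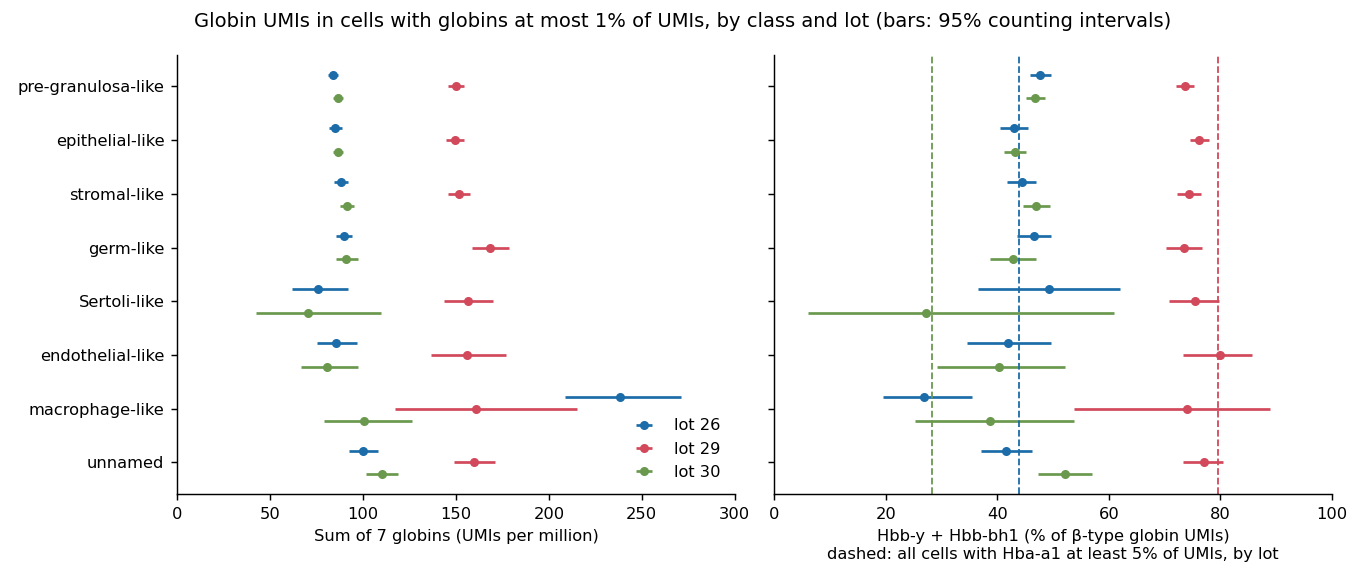
The left panel gives the sum of the 7 globins in CPM and the right panel the embryonic share of β-type UMIs (%), by class and lot, in cells with at most 1% globin. Bars are 95% counting intervals, and dashed lines give the share in the Hba-a1 cells of the lot. Lot 29 is to the right in both panels, and the macrophage-like cells of lot 26 stand apart with 238 CPM and a share of 26.9%.

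By gene, Hbb-y was at 26.9, 76.0 and 26.6 CPM in these cells of lots 26, 29 and 30 and Hba-x at 3.25, 11.1 and 3.24. The adult gene Hbb-bs ran the other way, at 27.5, 20.8 and 26.7, and Hba-a1 was at 24.4, 39.8 and 26.7. Hbb-y and Hba-x were thus highest in lot 29. Hbb-bh1 was not, with 20, 19 and 36 UMIs in all (0.159, 0.218 and 0.255 CPM), and Hba-a2 had 1, 0 and 0.

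Within each lot, the deeper germ-like cells held more globin UMIs each than pre-granulosa-like cells. Germ-like cells, with a median of 21711, 18133 and 23950 UMIs in lots 26, 29 and 30, had 2.15, 3.42 and 2.35 globin UMIs each, and pre-granulosa-like cells, with 10631, 8308 and 11211, had 0.931, 1.30 and 1.02. An Hba-a1 UMI was seen in 43.4%, 58.6% and 49.6% of germ-like and 21.9%, 28.7% and 25.3% of pre-granulosa-like cells. After each cell was thinned to 4000 UMIs, the shares were 8.88%, 19.7% and 12% against 9.11%, 15.3% and 10.4%. At matched depth the germ-like share was below the other in lot 26 and above it in lots 29 and 30, by less than 5 percentage points in each. Neither class is known to make globin, and the source of these UMIs was not tested.

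When all cells of a class were summed, each of 6 classes was tested against pre-granulosa-like cells with edgeR's quasi-likelihood test, in 42 tests of a globin. Only 4 were called, all higher. In germ-like cells, where 74.7% of all genes were called and 36.2% as higher, these were Hba-x (log2 fold change 4.06 ± 0.93, adjusted p = 0.000345), Hbb-y (3.32 ± 0.87, adjusted p = 0.00131) and Hbb-bh1 (3.30 ± 0.79, adjusted p = 0.000642). In endothelial-like cells, where 48.8% were called and 23.4% as higher, it was Hbb-bh1 (4.20 ± 1.02, adjusted p = 0.00138). No globin was called in epithelial-like, stromal-like, Sertoli-like and macrophage-like cells, where 45.6%, 49.6%, 37.3% and 39.4% of genes were. The pre-granulosa-like sum of lot 30, part of the reference in all 42 tests, held 4 Hba-a1 cells. Its Hba-a1 was at 145 CPM, against 29.9 and 41.1 in lots 26 and 29, and its Hbb-bs at 226, against 25.5 and 22.4. A globin that was not called is therefore not shown to be equal between classes. With the lot as a block 5 were called, as Hbb-bt in endothelial-like cells was added (2.13 ± 0.83, adjusted p = 0.0298).

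These calls rested on a few cells. Of the 2040 Hba-x UMIs of germ-like cells in lot 29, 1956 came from 1 Hba-a1 cell. In lot 26, 3 germ-like cells had 8.20% to 13.3% globin and 1417, 1750 and 4776 UMIs of Hbb-y. In endothelial-like cells of lot 26, 37 of 39 Hbb-bh1 UMIs came from the Hba-a1 cell described above. With cells over 1% globin left out, the log2 fold changes in germ-like cells fell to -0.20 for Hba-x, -0.02 for Hbb-y and -1.06 for Hbb-bh1. The globin sum of germ-like cells was then 89.6, 169 and 91.1 CPM in lots 26, 29 and 30, against 84.1, 150.1 and 86.6 in pre-granulosa-like cells.

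With all cells over 1% globin left out, the pre-granulosa-like sum of lot 30 lacked its 4 Hba-a1 cells. Macrophage-like cells lost none and kept 231, 45 and 73 globin UMIs in lots 26, 29 and 30. Among them 39.5% of genes were called and 20.3% as higher (37.2% to 74.7% called over the 6 classes). The 4 globin calls above were then gone and 3 others appeared, all in macrophage-like cells. They were Hba-a1 (1.05, adjusted p = 0.0273), Hbb-bs (1.04, adjusted p = 0.00801) and Hbb-bt (1.05, adjusted p = 0.0123), all adult-type genes. Of the 10 leading genes of this cluster, 4 were on the macrophage list (C1qa, C1qb, C1qc and Tyrobp) and 4 on the neutrophil list (S100a8, Camp, S100a9 and Ngp), and it stayed unnamed when called doublets were removed. The macrophage-like cells of lot 26 had 231 globin UMIs in 68 cells, with an embryonic share of 26.9% (interval 19.5% to 35.4%) where the lot as a whole had 45.1%. Of these, 2 cells had 0.875% and 0.510% globin, with 51 and 27 UMIs of Hba-a1, 51 and 13 of Hbb-bs and 0 and 2 of Hbb-y. Without cells over 0.5% globin, a limit set after seeing the data, 0 of 42 tests were called by edgeR's quasi-likelihood test, and 0 had an unadjusted p under 0.05. The limits of 1% and 0.5% remove cells by the measure that is then tested, so these counts describe which cells held the UMIs and support nothing further.

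Between the Hba-a1 cells and the low level elsewhere lay 10 cells with over 1% globin, 6 in lot 26, 3 in lot 29 and 1 in lot 30. Their globin was 1.44% to 19.7% of UMIs, and they had 2010 to 8476 genes. All 10 were of the embryonic kind, with 84.5% to 98.4% of β-type UMIs from Hbb-y and Hbb-bh1, and all had Hba-x (18 to 1007 UMIs). They lay in pre-granulosa-like (4), germ-like (3), epithelial-like (1), stromal-like (1) and unnamed (1) clusters, and 1 was called a doublet. By contrast, 10 of the 11 Hba-a1 cells outside the red-blood-cell-like cluster were adult-type. Hba-a1, which set the cut, was 17.4% of the globin UMIs of embryonic and 34% of those of adult-type cells.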

How the data were processed

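The data were UMI counts from 3 lots of E12.5 FOSCs (10X Genomics 3′ v3 libraries). The authors made the deposited counts with UMI-tools, STAR 2.7 and featureCounts 2.0.1 on GRCm38, from uniquely mapped reads, and did not normalize them. The annotation release and strand setting were not given in the sources used here, so overlapping genes can share reads. Members and lists were chosen with earlier results of these data known.

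Kept cells were clustered in Seurat 5.3.0 (R 4.3.3) on 2000 variable genes, 50 principal components and a resolution of 0.8, with all globin genes removed. Names of the 22 clusters came from marker lists. A list had to lie above the median cluster by 1 log2 unit in the mean, lead the next list by 0.25 and have 3 raised markers with 2 found in most cells, and 4 clusters with 2236 cells stayed unnamed. Scrublet in scanpy 1.11.5 (expected rate 8%) called doublets per lot, which were kept except in an alternative. UMIs were summed per lot for Hba-a1 cells and the rest, or per class and lot (8 classes with at least 10 cells in every lot, 24 sums, the smallest of 157329 UMIs). Tests on sums used the quasi-likelihood model of edgeR 4.0.16 after TMM scaling and filterByExpr, were tested on simulated data, and had p-values adjusted by Benjamini-Hochberg over every gene in the fit (threshold 0.05). In the simulation 22% of 2-fold and 90% of 4-fold changes were recovered for Hba-a1 cells, and 39% and 94% for the red-blood-cell-like cluster. Its means were drawn from the other cells, so it held no libraries filled by globin and does not test the scaling of such libraries. Shares have exact Clopper-Pearson 95% intervals (scipy 1.17.1), levels exact Poisson ones, and 0 counts a limit of 3 counts per lot. The p-values measure the spread between pools.

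Sums of 1 lot come from 1 pool and so count as paired. Over 84 pairs of sums of the same lot the deviations from the class means had a median correlation of 0.351 (62 pairs over 0.1), and over the 3 pairs of Hba-a1 cells and rest 0.137. The main model had no term for the lot.

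Genes named were the 7 globins, other globin genes in the tables, the 4 genes of each red cell list with the largest log2 fold change, known globin regulators, the 10 genes most like Hba-a1 (among genes at 20 CPM or more in at least 3 sums) and genes past the size rule. Of these, 4 genes are not reported here by name, although the counts include them. Uros, Ppox, Tfrc, Hmox1, Car1 and Aqp1 were named after their values were seen. The symbols Epb4.2 and Epb4.1 of the tables were read as Epb42 and Epb41. Alternatives were RLE size factors, all genes kept whatever their counts, DESeq2 1.42.0, a block for the lot, globins in or out of the totals or the clustering, resolutions of 0.4 and 1.2, other limits on Hba-a1 (2% and 10%) or on all globins, doublets removed, and each lot left out. The size rule, the 0.5% limit on globin, and the runs without Hba-a1 cells in other classes or on cluster cells only were chosen after seeing the data.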

Additional observations from a re-analysis of the deposited data

How the results depend on the processing

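All 7 globins stayed higher in the red-blood-cell-like cluster under all 15 alternatives. The embryonic share of β-type UMIs was 36.1% to 61.7% in place of 50.5%, and the low end came from the mean of per-cell shares and from leaving out lot 29. Of the red cell genes, 27 to 38 passed in place of 35, with 27 without lot 29. The globin calls in other classes moved from 4 to 7 with globins in the clustering, to 0 without cells over 0.5% globin, and to 4 to 8 with 1 lot left out (8 without lot 30). Reversed values, on the log2 scale and at 1% and 0.5% globin alike, were -0.20 for Hba-x, -0.0168 and -0.0169 for Hbb-y and -1.06 for Hbb-bh1 in germ-like cells. Others that changed sign were Hbb-bt in germ-like cells (-1.64 to 1.97 with 1 lot left out, 0.65 without Hba-a1 cells), Hbb-bs in germ-like cells (0.82 without Hba-a1 cells) and in endothelial-like cells (-2.61 to 3.09 with 1 lot left out), Hba-a1, Hbb-bt and Hbb-bs in macrophage-like cells (1.05, 1.05 and 1.04 without cells over 1% globin), and Hba-a2 there with DESeq2 (3.86). Another 110 changes of sign had no call under either setting. The lot as a block changed no other call of a globin than the Hbb-bt call given above, and as a replicate block it moved the red cell count from 35 to 37 (Tfrc and Hmox1). With 1 lot left out, 17 to 54 genes were past the size rule, a number that could not fall below 7, since fewer lots make the rule easier to meet. Genes past the size rule went from 7 to 3 with globins in the totals and to 20 in cluster cells only. No test was made there, so other size factors, no filter, DESeq2 and the replicate block were not run for it. Apart from fewer lots under the size rule, the cause of these moves was not tested except where the alternative removes the cells in question. Depth limits the embryonic cells of lot 30 (4 cells) and genes with a few UMIs.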
